A study of Homo sapiens with 24 samples.

Results

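The genes described are 9 transcription factor genes of the neural plate border and dorsal ectoderm, ZIC1, ZIC2, ZIC4, ZIC5, MSX1, MSX2, DLX3, DLX5 and DLX6. They were taken by symbol from the counts of 61551 genes, as a list drawn up with earlier results of these data known, and each symbol matched 1 entry. The study asked what HAR123, an enhancer in an intron of SMG6 whose sequence changed fast in the human lineage, does in human embryonic stem cells (hESCs) and in the neuroectoderm made from them. RNA was sequenced from H9, an established hESC line, in 4 genotypes: unedited cells with the human element (hHAR123), cells with both alleles of the element deleted by CRISPR-Cas9 (HAR123-KO), and cells in which the chimpanzee (cHAR123) or mouse (mHAR123) element replaced it. Each genotype was sampled as untreated hESCs (day 0) and as neuroectoderm, after 5 days in medium with serum replacement, Noggin at 500 ng/ml (a BMP antagonist) and SB431542 at 10 μM (an inhibitor of the activin and TGF-β receptors). Every group of edited and unedited cells therefore met the same BMP and TGF-β block at the neuroectoderm stage. Each of the 8 conditions had 3 libraries, 24 in all. A pair of clones per genotype was used and the sources do not tie libraries to clones, so p-values measure the spread between libraries, which may be technical.

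Total counts ran from 23334732 to 35198684 per library in hESCs and from 21022748 to 25978892 in neuroectoderm. No count checks the deletion itself, since the element is intronic. In neuroectoderm the genotype labels of the replacement lines are in doubt: the base means listed in the study's supplementary table under cHAR123 fit the count columns of mHAR123, and those listed under mHAR123 fit the columns of cHAR123. Their values are therefore given as those of "the libraries labelled" cHAR123 or mHAR123, and exchanging the labels in neuroectoderm exchanges the values of the replacement lines there. The labels of the hESC libraries were not checked against listed base means. The marker genes of the stages went with the stage labels: the summed level of 7 pluripotency genes in hHAR123 was 4285 to 4371 CPM (counts scaled to the library total, the unit of level used here) in hESCs and 1657 to 1756 CPM in neuroectoderm, and that of 7 neuroectoderm genes was 877 to 906 CPM and 4390 to 4452 CPM. In bulk RNA, fewer cells of a type and less RNA per cell cannot be told apart, and this holds for every level below.

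The neural plate border is the strip of ectoderm between the neural plate and the future epidermis. It forms under intermediate BMP signalling together with WNT and FGF signals, and gives rise to the neural crest, the cranial placodes and the dorsal neural tube. ZIC genes encode zinc finger factors of the neural plate and its border, MSX genes encode homeodomain repressors that respond directly to BMP signals, and DLX genes encode Distal-less homeodomain factors of the border, the non-neural ectoderm and the ventral forebrain. Many of these genes lie in the genome as pairs. On GRCh38, ZIC1 (chr3:147393422-147510293, forward strand) and ZIC4 (chr3:147386046-147406809, reverse strand) overlap and share 176 exonic bases. ZIC2 (chr13:99981784-99986765, forward strand) and ZIC5 (chr13:99962964-99971767, reverse strand) are transcribed away from each other, from starts 10017 bases apart. DLX5 (chr7:97020396-97024950, reverse strand) and DLX6 (chr7:97005553-97011040, forward strand) point toward each other, and DLX6 shares 759 exonic bases with its antisense gene DLX6-AS1. MSX1 (chr4:4859665-4863936, forward strand), MSX2 (chr5:174724582-174730896, forward strand) and DLX3 (chr17:49990005-49995224, reverse strand) have no such partner among the 9. How strand was handled in counting is not given in the sources used here, so reads in bases shared by genes on opposite strands cannot be told apart.

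RefSeq promoter windows were found for 7 of the 9 genes, all but DLX3 and DLX5. Those of MSX1, MSX2 and ZIC1, the 3 genes with the largest increases in HAR123-KO neuroectoderm, and of DLX6, which fell there, are shown so that genes moving together or apart can be compared in sequence. Each is the 250 bases before the RefSeq start (GRCh38.p14), 5′ to 3′ on the gene's strand. Capitals mark matches, on either strand, to CTTTG (the core of TCF/LEF sites), TAATT (a homeodomain core) or GGCGCC (a GC-rich SMAD site). The windows are MSX1 at chr4:4859415-4859664, forward strand, MSX2 at chr5:174724332-174724581, forward strand, ZIC1 at chr3:147409115-147409364, forward strand, and DLX6 at chr7:97005303-97005552, forward strand. The ZIC1 window lies upstream of its RefSeq start but inside the longer span that the counting annotation gives the gene.
MSX1: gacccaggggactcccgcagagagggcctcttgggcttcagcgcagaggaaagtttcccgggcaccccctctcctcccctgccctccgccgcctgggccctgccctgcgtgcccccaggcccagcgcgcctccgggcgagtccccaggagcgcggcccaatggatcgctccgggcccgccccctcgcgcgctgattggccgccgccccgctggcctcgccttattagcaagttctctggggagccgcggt
MSX2: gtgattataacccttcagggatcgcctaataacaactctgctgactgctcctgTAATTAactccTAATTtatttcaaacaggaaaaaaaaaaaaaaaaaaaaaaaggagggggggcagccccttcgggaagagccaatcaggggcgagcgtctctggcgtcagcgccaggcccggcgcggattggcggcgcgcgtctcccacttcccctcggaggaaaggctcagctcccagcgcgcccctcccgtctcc
ZIC1: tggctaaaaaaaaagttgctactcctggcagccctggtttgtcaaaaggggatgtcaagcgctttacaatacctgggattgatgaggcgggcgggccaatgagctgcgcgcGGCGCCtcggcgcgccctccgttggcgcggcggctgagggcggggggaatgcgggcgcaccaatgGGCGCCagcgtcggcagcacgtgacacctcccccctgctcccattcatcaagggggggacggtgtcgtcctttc
DLX6: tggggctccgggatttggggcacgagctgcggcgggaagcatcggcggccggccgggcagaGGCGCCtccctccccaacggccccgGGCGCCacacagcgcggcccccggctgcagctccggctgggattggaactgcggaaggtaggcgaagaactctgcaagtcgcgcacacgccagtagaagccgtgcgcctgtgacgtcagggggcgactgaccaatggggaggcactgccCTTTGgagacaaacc
The MSX1 window held no match. The MSX2 window held 3 matches to TAATT, of which an overlapping pair, 1 on each strand, makes up TAATTA. ZIC1 held 2 matches to GGCGCC, and DLX6 held 2 to GGCGCC and 1 to CTTTG. Of 35116 windows of this length in all, 42.1% held CTTTG, 23.1% held TAATT and 16.4% held GGCGCC, so each kind of match is common. These matches are letters in a window and not binding sites.

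Levels of different genes are comparable only per length, so they are given first as RPKM (CPM per kilobase of exon). In hHAR123 neuroectoderm, ZIC2 was highest at 69.5 ± 0.720 RPKM (SD, n = 3), followed by ZIC5 at 13.9, ZIC1 at 2.60, MSX1 at 1.80, MSX2 at 0.757, DLX5 at 0.661, DLX3 at 0.478, ZIC4 at 0.320 and DLX6 at 0.258 RPKM. The libraries of MSX2 (SD 0.0847) and DLX5 (SD 0.0953) overlapped, as did those of DLX5 and DLX3 (SD 0.0951), while the other neighbours in this order did not overlap. In HAR123-KO neuroectoderm the order was ZIC2 at 111, ZIC5 at 24.1, MSX1 at 21.2, ZIC1 at 12.9, MSX2 at 7.95, ZIC4 at 1.36, DLX3 at 1.15, DLX5 at 0.112 and DLX6 at 0.0810 RPKM. There ZIC4 (SD 0.103) and DLX3 (SD 0.253) overlapped. MSX1 thus stood close to ZIC5 in HAR123-KO neuroectoderm, and DLX5 and DLX6 were the lowest of the 9.

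Deletion of HAR123 was accompanied in neuroectoderm by higher MSX1, MSX2, ZIC1, ZIC4 and DLX3 and by lower DLX5 and DLX6. All 9 genes had enough counts to be tested, and 7 were called, 5 up and 2 down. A call needed a log2 fold change beyond 1 in either direction together with an adjusted p below 0.01 from the quasi-likelihood test of edgeR, adjusted by Benjamini-Hochberg over all genes tested, and SE is the standard error of a log2 fold change. Over all 21362 genes tested in this comparison, 9.45% were called, 4.92% up and 4.52% down. DLX5 and DLX6 had at most 7 counts in each HAR123-KO library and passed the filter on low counts through hHAR123. They could only be called lower, so the 2 down calls are a description and are not read against the share of all genes. ZIC2 and ZIC5 were also higher in HAR123-KO, past the p threshold and under the fold threshold. The median log2 fold change of the 9 genes was 1.32, against 0.00092 over all genes tested.

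MSX1 and MSX2, the BMP-responsive homeodomain repressors, had the largest differences. MSX1 was at 4.00, 4.05 and 3.42 CPM in the 3 hHAR123 neuroectoderm libraries and at 46.6, 44.2 and 44.3 CPM in the 3 HAR123-KO libraries. The groups lay far apart, with a ratio of mean CPM of 11.8 and a log2 fold change of 3.61 (SE 0.08, adjusted p = 1.28e-38, edgeR). MSX2 was at 1.57, 1.90 and 1.58 CPM in hHAR123 and at 17.4, 16.4 and 19.3 CPM in HAR123-KO. Its ratio of mean CPM was 10.5 and its log2 fold change 3.44 (SE 0.12, adjusted p = 7.70e-30, edgeR). These genes lie on different chromosomes, and their fold changes were of similar size.

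ZIC1 and ZIC4, the overlapping pair, rose together. ZIC1, a factor of the border and dorsal neural tube, was at 17.4, 17.8 and 18.0 CPM in hHAR123 and at 88.9, 89.0 and 86.8 CPM in HAR123-KO neuroectoderm. The log2 fold change was 2.36 (SE 0.05, adjusted p = 2.24e-39, edgeR) and the groups did not overlap. ZIC4 was at 2.43, 3.31 and 2.43 CPM in hHAR123 and at 12.4, 11.7 and 10.7 CPM in HAR123-KO. Its log2 fold change was 2.13 (SE 0.12, adjusted p = 5.51e-21, edgeR). ZIC4-AS1, which shares 268 exonic bases with ZIC4, had at most 1 count in any library.

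ZIC2 and ZIC5, the other ZIC pair, are expressed in pluripotent cells as well as in neural tissue, and ZIC2 is known as a gene of forebrain midline development. ZIC2 was at 229.0, 226.2 and 231 CPM in hHAR123 and at 367, 365.2 and 365.3 CPM in HAR123-KO neuroectoderm. The groups did not overlap, but the log2 fold change of 0.73 (SE 0.03, adjusted p = 5.27e-27, edgeR) was under the fold threshold. ZIC5 was at 64.5, 61.8 and 60.6 CPM in hHAR123 and at 104, 107 and 115 CPM in HAR123-KO, with a log2 fold change of 0.85 (SE 0.04, adjusted p = 7.90e-24, edgeR). ENSG00000288060, a long noncoding RNA gene between them, was at 3.32 ± 0.164 CPM in hHAR123 and 5.97 ± 0.367 CPM in HAR123-KO (SD, n = 3 each), a log2 fold change of 0.90 that was also under the fold threshold.

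The DLX genes were the lowest in counts and did not move one way. DLX3, which marks non-neural ectoderm and placodes, had 26, 26 and 37 counts in hHAR123 neuroectoderm and 77, 89 and 58 in HAR123-KO. Its log2 fold change was 1.32 (SE 0.20, adjusted p = 2.57e-07, edgeR). DLX5 had 24, 24 and 31 counts in hHAR123 and 5, 5 and 4 in HAR123-KO, or 1.15 ± 0.166 and 0.196 ± 0.0281 CPM (SD, n = 3 each). The groups did not overlap, and the log2 fold change was −2.48 (SE 0.38, adjusted p = 2.57e-07, edgeR). DLX6 had 19, 23 and 19 counts in hHAR123 and 7, 6 and 7 in HAR123-KO, with a log2 fold change of −1.60 (SE 0.37, adjusted p = 0.000266, edgeR). With DESeq2 the adjusted p of DLX6 was 0.0144, so that this call depends on the tool. DLX6-AS1 went the same way, from 29, 38 and 43 counts to 7, 2 and 6 (log2 fold change −2.85, SE 0.36), and its reads cannot be told apart from those of DLX6 in the bases they share.

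**Figure D1:**
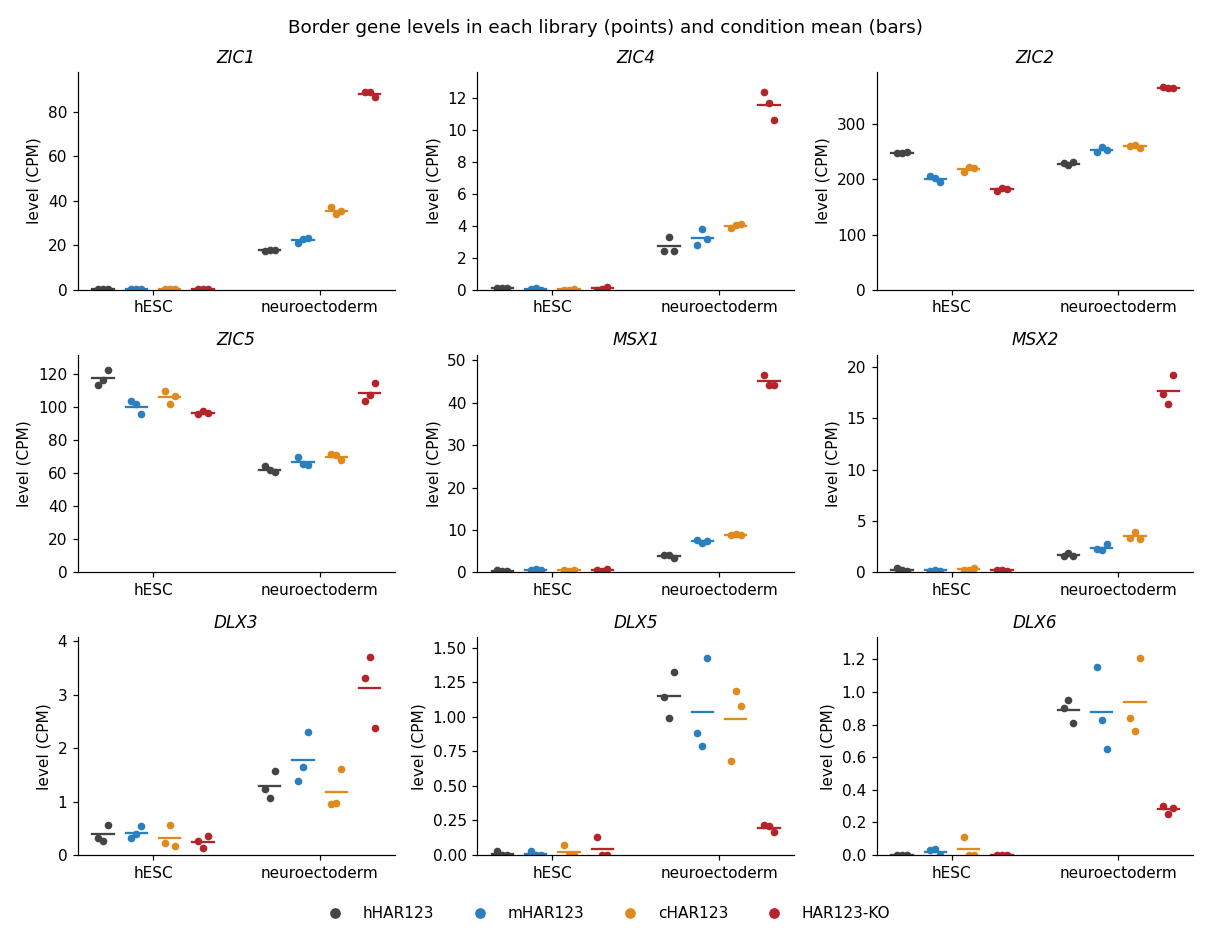
Level of each of the 9 genes in CPM (vertical axes start at 0 and differ between panels) in each library (points) and the mean of each condition (bars), for hESCs and neuroectoderm and by labelled genotype. In neuroectoderm the HAR123-KO libraries lie above all others for ZIC1, ZIC4, ZIC2, ZIC5, MSX1, MSX2 and DLX3 and below all others for DLX5 and DLX6, while DLX5 and DLX6 had at most 3 counts in every hESC library.

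The replacement genotypes asked whether the chimpanzee or mouse element could stand in for the human one. In the libraries labelled cHAR123, 3 of the 9 genes were called relative to hHAR123 neuroectoderm, all up, where 0.978% of all genes tested were called and 0.522% up. MSX1 was at 8.85, 9.0 and 8.70 CPM in these libraries, a log2 fold change of 1.23 (SE 0.11, adjusted p = 2.43e-11, edgeR). MSX2 was at 3.36, 3.93 and 3.27 CPM, a log2 fold change of 1.07 (SE 0.17, adjusted p = 1.22e-05, edgeR). ZIC1 was at 37.3, 34.0 and 35.4 CPM, a log2 fold change of 1.02 (SE 0.06, adjusted p = 4.50e-17, edgeR). ZIC1 and MSX2 lay at the fold threshold: without hHAR123 replicate 1 or cHAR123 replicate 1 ZIC1 had 0.997 or 0.984, and without cHAR123 replicate 2 MSX2 had 0.991. ZIC4 (0.56), ZIC2 (0.20) and ZIC5 (0.19) passed the p threshold alone, and DLX3 (−0.13), DLX5 (−0.23) and DLX6 (0.08) had adjusted p-values of 0.639 to 0.892 (edgeR).

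In the libraries labelled mHAR123, 0 of the 9 genes were called relative to hHAR123 neuroectoderm, where 1.03% of all genes tested were called. DESeq2 also called 0. An unadjusted p under 0.05 alone, a looser mark, was met by 6, and the share of all genes at that mark is not given. MSX1 was at 7.74, 6.87 and 7.36 CPM, a log2 fold change of 0.98 (SE 0.12, adjusted p = 5.36e-08, edgeR) that lay just under the fold threshold. Without hHAR123 replicate 1, hHAR123 replicate 2 or mHAR123 replicate 2, MSX1 had 1.004, 1.036 and 1.025 and was called. ZIC1 was at 21.0, 22.9 and 23.1 CPM, a log2 fold change of 0.37 (SE 0.07, adjusted p = 7.27e-05, edgeR). For MSX2 the log2 fold change was 0.55 (SE 0.19, adjusted p = 0.0352, edgeR), and for DLX3 it was 0.49 (SE 0.24, adjusted p = 0.140, edgeR). ZIC4 had 0.29, ZIC2 0.19, ZIC5 0.15, DLX5 −0.12 and DLX6 0.03, of which ZIC2 alone passed the p threshold of 0.01.

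**Figure D2:**
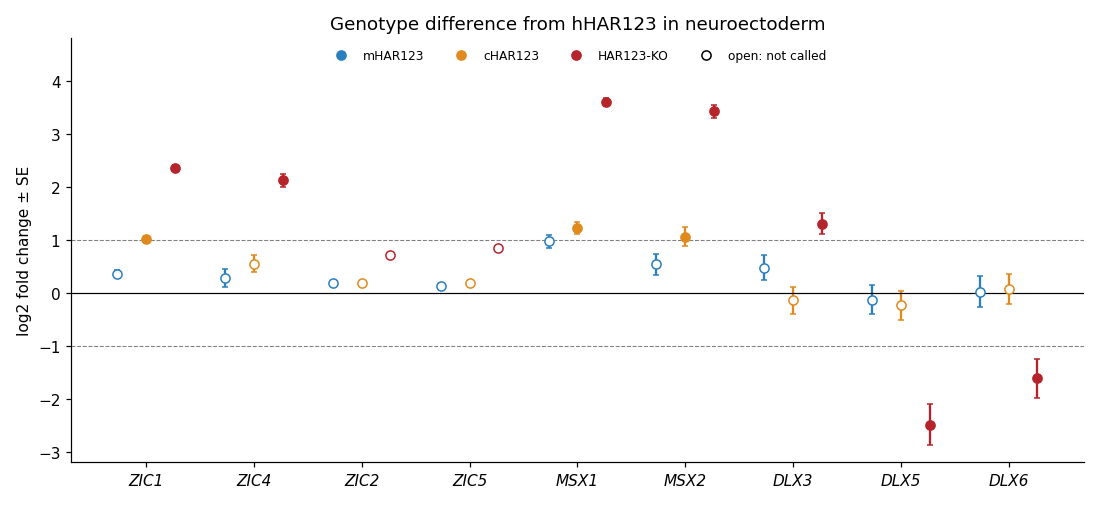
Log2 fold change of each gene against hHAR123 neuroectoderm (edgeR, 3 against 3 libraries, error bars are standard errors) in the libraries labelled mHAR123 and cHAR123 and in HAR123-KO. Filled points were called, open points were not, and dashed lines mark the fold threshold of 1 on the log2 scale. HAR123-KO lies farthest from 0 for every gene, from 3.61 for MSX1 to −2.48 for DLX5.

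Against HAR123-KO neuroectoderm, most of the 9 genes differed in the replacement genotypes. In the libraries labelled cHAR123, 7 were called relative to HAR123-KO, 5 lower and 2 higher, where 7.61% of all genes tested were called, 3.91% lower and 3.70% higher. The log2 fold changes were −2.36 for MSX1, −2.34 for MSX2, −1.54 for ZIC4, −1.42 for DLX3 and −1.32 for ZIC1, and 2.28 for DLX5 and 1.71 for DLX6, while ZIC2 (−0.50) and ZIC5 (−0.64) were under the fold threshold. In the libraries labelled mHAR123, 6 were called, 4 lower and 2 higher, where 7.33% of all genes tested were called, 3.78% lower and 3.55% higher. Here they were −2.86 for MSX2, −2.60 for MSX1, −1.97 for ZIC1 and −1.82 for ZIC4, and 2.38 for DLX5 and 1.66 for DLX6, with ZIC2 at −0.51 and ZIC5 at −0.68. DLX3 had −0.81 (SE 0.19, adjusted p = 0.000473, edgeR), and −1.03 without mHAR123 replicate 3. DLX6 against HAR123-KO had an adjusted p of 0.0130 with DESeq2 in the libraries labelled mHAR123. These comparisons share the HAR123-KO libraries with each other and with the comparison against hHAR123. DLX5 and DLX6 passed the filter on low counts here through the replacement libraries and could only be called higher than HAR123-KO. The counts called higher are therefore a description and are not read against the shares of all genes.

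As a share of the log2 difference between HAR123-KO and hHAR123, the libraries labelled cHAR123 stood at 43.4% for ZIC1, 34.0% for MSX1, 31.4% for MSX2, 26.7% for ZIC4, 27.5% for ZIC2 and 21.5% for ZIC5. The libraries labelled mHAR123 stood at 14.4%, 26.4%, 15.3%, 12.5%, 22.4% and 12.9% for the same genes in the same order. For ZIC4 the libraries labelled mHAR123 overlapped those of hHAR123 (adjusted p = 0.230, edgeR), so its 12.5% gives no direction. DLX3 stood at −10.5% for the label cHAR123 and 35.8% for the label mHAR123. Its libraries overlapped those of hHAR123 in both (adjusted p = 0.793 and 0.140, edgeR), so these shares give no direction. DLX5 and DLX6 lay near hHAR123 in both, at 9.15% and −4.61% in the libraries labelled cHAR123 and at 6.16% and 1.10% in those labelled mHAR123. Between the replacement genotypes themselves, 0 of the 9 genes were called in neuroectoderm, where 0.261% of all genes tested were called. DESeq2 also called 0. An unadjusted p under 0.05 alone was met by 4 genes, and the share of all genes at that looser mark is not given. ZIC1 differed most clearly, being lower in the libraries labelled mHAR123 by a log2 fold change of −0.65 (SE 0.06, adjusted p = 3.61e-12, edgeR), under the fold threshold. ZIC2 (−0.01, SE 0.03) and ZIC5 (−0.04, SE 0.04) were the closest to 0. DLX3 had 0.61, MSX2 −0.53, ZIC4 −0.28, MSX1 −0.25, DLX5 0.10 and DLX6 −0.05, with adjusted p-values of 0.0313 to 0.960 (edgeR).

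In hESCs, ZIC2 and ZIC5 were the only members of the 9 genes above 1 CPM in any library. ZIC2 was at 247.4, 247.1 and 249.9 CPM in hHAR123 hESCs and at 178, 185 and 183 CPM in HAR123-KO hESCs. It was thus lower in HAR123-KO hESCs, with a log2 fold change of −0.47 (SE 0.03, adjusted p = 1.18e-17, edgeR), where it was higher in HAR123-KO neuroectoderm. ZIC5 was at 113, 117 and 123 CPM in hHAR123 and at 96.2, 97.7 and 96.4 CPM in HAR123-KO, with a log2 fold change of −0.30 (SE 0.03, adjusted p = 9.16e-10, edgeR). ZIC2 and ZIC5 were also lower in the replacement genotypes, by −0.21 and −0.18 in cHAR123 and by −0.34 and −0.27 in mHAR123, all under the fold threshold. Of the other genes, ZIC1 had 4 to 13 counts, MSX1 8 to 22, MSX2 4 to 12 and DLX3 4 to 20 per hESC library, and ZIC4 had 0 to 6. DLX5 and DLX6 had at most 3 counts in every hESC library.

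In none of the 6 genotype comparisons of hESCs was a member called, and DESeq2 called 0 in each as well. Of all genes tested, 1.18% were called between HAR123-KO and hHAR123, 0.850% between cHAR123 and hHAR123 and 1.23% between mHAR123 and hHAR123. Against HAR123-KO it was 0.271% in cHAR123 and 0.244% in mHAR123, and between mHAR123 and cHAR123 it was 0.158%. An unadjusted p under 0.05 with no fold threshold is a looser mark than a call. It was met by 3 of 5 members tested, 2 of 3, 2 of 4, 2 of 3, 1 of 4 and 2 of 4, in the same order. The share of all genes at this looser mark is not given, so these numbers are not read as a result about the members. Relative to hHAR123, MSX1 had a log2 fold change of 0.77 in HAR123-KO hESCs (SE 0.36, adjusted p = 0.145, edgeR), 0.37 in cHAR123 (SE 0.38) and 0.70 in mHAR123 (SE 0.35, adjusted p = 0.135, edgeR). The libraries of mHAR123 lay above those of hHAR123, at a ratio of mean CPM of 1.69, while those of HAR123-KO overlapped them. DLX3 had −0.61 in HAR123-KO (SE 0.43) and 0.05 in mHAR123 (SE 0.37), and ZIC1 had 0.52 in HAR123-KO (SE 0.43). In the other 3 comparisons MSX1 ranged from −0.38 to 0.33, ZIC2 from −0.13 to 0.26, ZIC5 from −0.09 to 0.13 and, in the 2 that tested it, DLX3 from 0.40 to 0.67.

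Most of the 9 genes were higher in neuroectoderm than in hESCs. In hHAR123, 8 of the 9 were called between hESCs and neuroectoderm, 7 up and 1 down, where 45.9% of all genes tested were called, 24.6% up and 21.2% down. ZIC4, MSX2, DLX5 and DLX6 passed the filter on low counts in no comparison of hESCs with all 3 libraries a group, and MSX2 passed only in some that left out a library. Genes that pass here through the neuroectoderm libraries had to be higher there, in every genotype, so the counts called up between stages are a description and are not read against the share of all genes. ZIC1 rose most among the genes with over 3 counts in hESCs, from 0.242 ± 0.0950 to 17.7 ± 0.336 CPM (SD, n = 3 each), a log2 fold change of 5.89 (SE 0.16, adjusted p = 2.09e-29, edgeR). MSX1 rose by 3.23 (SE 0.24), MSX2 by 2.39 (SE 0.31) and DLX3 by 1.44 (SE 0.31) on the log2 scale. ZIC4 was at least 30.2-fold higher in neuroectoderm, DLX5 at least 12.8-fold and DLX6 at least 9.86-fold, against a floor of 3 counts per hESC library. ZIC5 fell by 1.21 (SE 0.04, adjusted p = 3.78e-27, edgeR), though its ratio of mean CPM of 0.530 was a 1.89-fold difference, within the fold threshold, and ZIC2 had −0.41 (SE 0.03). The scaling of the fit placed log2 fold changes between stages 0.292 below the log2 ratio of CPM in hHAR123, and 0.169 to 0.205 below it in the other genotypes, so that the call of ZIC5 rests on such a scaling, under which DESeq2 gave −1.27.

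In HAR123-KO, 5 of 7 genes tested were called between the stages, all up and ZIC4 and MSX2 among them, where 41.1% of all genes tested were called and 22.0% up. ZIC1 rose by 7.76, ZIC4 by 6.87, MSX2 by 6.25, MSX1 by 6.09 and DLX3 by 3.38 on the log2 scale. ZIC2 had 0.81 (SE 0.03), and ZIC5 had −0.03 (SE 0.03) in the fit but a ratio of mean CPM of 1.12, so its direction depends on the scaling. DLX5 and DLX6 did not pass the filter in HAR123-KO, where they were at least 1.83-fold and at least 2.60-fold higher in neuroectoderm. DESeq2, which had no such filter, called DLX6 there (adjusted p = 0.00186) and not DLX5 (adjusted p = 0.197), as did edgeR without the filter and with all 24 libraries in 1 fit. In cHAR123, 7 genes were called, all up, where 42.7% of all genes were called and 21.9% up, and in mHAR123 7 were called, all up, where 41.9% were called and 21.3% up. The called genes were those other than ZIC2 and ZIC5, with log2 fold changes from 1.70 for DLX3 to 7.73 for ZIC4 in cHAR123 and from 1.92 for DLX3 to 6.49 for ZIC1 in mHAR123. In these genotypes ZIC2 had 0.04 and 0.16 and ZIC5 had −0.80 and −0.76. When the labels of the replacement genotypes were exchanged in neuroectoderm, these counts stayed the same.

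**Figure D3:**
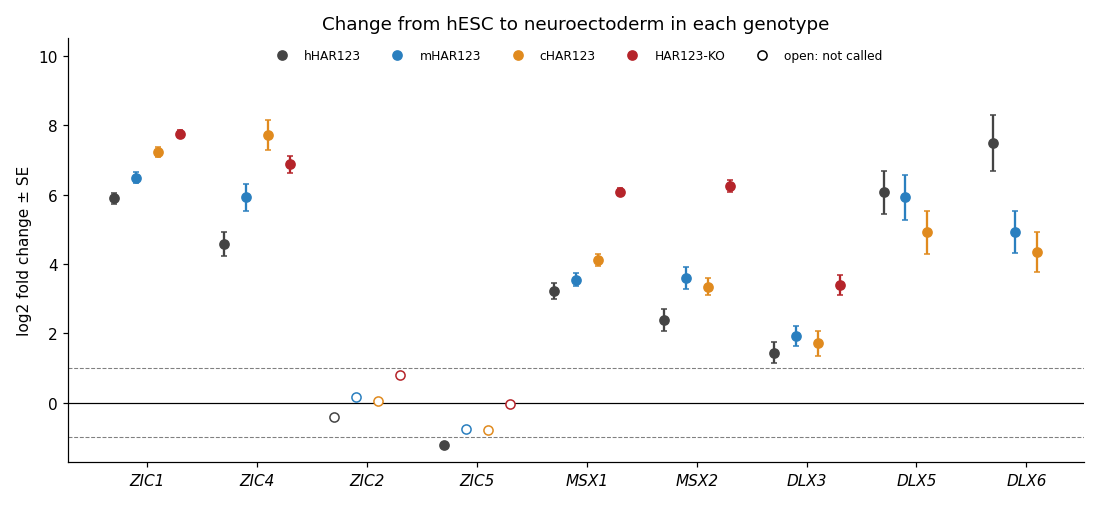
Log2 fold change of each gene from hESCs to neuroectoderm (edgeR, 3 against 3 libraries, error bars are standard errors) in each labelled genotype. Filled points were called, open points were not, and DLX5 and DLX6 have no point in HAR123-KO, where they were not tested. ZIC2 and ZIC5 lie between −1.21 and 0.81 while the other genes lie above 1, and the fitted values of ZIC4, DLX5 and DLX6 rest on hESC libraries with few or no counts.

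A genotype by stage interaction, fitted to all 12 libraries of HAR123-KO and hHAR123, tested if their difference changed from hESCs to neuroectoderm. For 6 of the 9 genes it was called, all upward, where 7.87% of all genes tested were called and 3.84% upward. The difference was larger in neuroectoderm by 3.83 on the log2 scale for MSX2 (SE 0.50), 2.84 for MSX1 (SE 0.38), 1.93 for DLX3 (SE 0.48), 1.84 for ZIC1 (SE 0.41), 1.19 for ZIC2 (SE 0.04) and 1.15 for ZIC5 (SE 0.05). For ZIC2 and ZIC5 the difference changed sign between the stages. ZIC4 had 2.28 (SE 0.81, adjusted p = 0.0195, edgeR), and 4.17 with an adjusted p of 0.00126 without HAR123-KO hESC replicate 3, which held 6 of its 7 counts in HAR123-KO hESCs. DLX5 and DLX6 had too few hESC counts for this difference to be read. The interactions of cHAR123 and mHAR123 with stage gave 0 calls each, where 0.797% and 0.967% of all genes were called. DESeq2 also called 0 in each. An unadjusted p under 0.05 alone was met by 5 and 3 genes, and the share of all genes at that looser mark is not given. With the labels as given, the values of the 9 genes in cHAR123 ran from −3.11 for DLX6 (SE 1.64) to 3.14 for ZIC4 (SE 1.04). In mHAR123 they ran from −2.57 for DLX6 (SE 1.61) to 1.34 for ZIC4 (SE 0.84). DLX6 and ZIC4 had at most 3 counts in every hESC library of hHAR123, cHAR123 and mHAR123, so these extremes are not read. ZIC2 and ZIC5 alone passed the p threshold in each interaction.

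Other DLX genes had their own directions in HAR123-KO neuroectoderm. DLX1 had 4, 1 and 2 counts in hHAR123 and 11, 16 and 12 in HAR123-KO, with a log2 fold change of 2.40 (SE 0.53). DLX2, which works with DLX1 in ventral forebrain interneurons, went the other way, from 18, 23 and 24 counts to 7, 9 and 11, with a log2 fold change of −1.27 (SE 0.35, adjusted p = 0.00170, edgeR). DLX4 had 0.31 (SE 0.35) and was not called. Of the DLX family, DLX3 and DLX1 were thus called up and DLX5, DLX6 and DLX2 down. DLX1, DLX2, DLX5 and DLX6 passed the filter on low counts through the group where they were higher. The filter thus set the direction in which each of them could be called.

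Genes that act with the 9 at the border changed beside them. Of 7 other border specifiers, 6 were tested in HAR123-KO against hHAR123 neuroectoderm and 5 were called up, with a median log2 fold change of 3.97 and the largest changes in PAX7 (6.09) and TFAP2B (5.87). Of 17 BMP ligands, antagonists and response genes, 11 were called up and 2 down, with a median of 1.18. BMP4, a ligand that induces MSX genes, had 4.49, and BMP5 had 3.79. Of 12 WNT ligands and response genes, 11 were tested, 8 were called up and 1 down, with a median of 2.87, led by WNT1 (4.25) and WNT3A (4.03), ligands of the dorsal midline. WNT8B, a ligand of the same list, went the other way, from a mean of 36.6 CPM in hHAR123 to 3.89 CPM in HAR123-KO. Of 7 roof plate and dorsal neural tube genes, 6 were tested and 4 were called up, with a median of 2.09, led by LMX1B (4.53) and OLIG3 (3.05). In the libraries labelled cHAR123, the genes called up were 4 of 6 border specifiers tested and 3 of 17 BMP genes. With them were 2 of 11 WNT genes and 2 of 5 roof plate genes, where 0.522% of all genes tested were called up. In those labelled mHAR123 the numbers were 4 of 6, 2 of 17, 0 of 11 and 1 of 6, where 1.03% of all genes tested were called in either direction. In neither was a gene of these lists called down. The lists were drawn up with earlier results of these data known, so their counts are a description.

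Markers of other cell types also moved with the 9 genes. The summed level of 7 neural crest markers was 122 to 127 CPM per library in hHAR123 neuroectoderm and 1054 to 1061 CPM in HAR123-KO, and all 6 tested were called up, with a median log2 fold change of 4.86 and the largest changes in FOXD3 (6.27) and SNAI2 (4.99). TFAP2A stands in both this list and that of the border specifiers. The summed level of 9 forebrain and eye field genes was 694 to 713 CPM in hHAR123 and 293 to 297 CPM in HAR123-KO. Of 8 tested, 5 were called down, led by RAX (−4.10) and FEZF2 (−3.60). Of 7 neuroectoderm genes, 3 were called down, with SOX2 (−1.73) and SOX1 (−1.60) first, and their summed level was 2184 to 2223 CPM in HAR123-KO. The part of these cell types in the levels of the 9 genes was not tested.

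Markers of non-neural ectoderm, where DLX3 and DLX5 are known to act, did not move as a group. Of 7 preplacodal markers, 2 were called up and 1 down, with GATA3 at 3.89 and GATA2 at −2.04. The summed level of the 7 was 47.9 to 53.9 CPM in hHAR123 and 55.1 to 57.8 CPM in HAR123-KO. GATA3 had at most 3 counts in every hHAR123 neuroectoderm library and passed the filter on low counts through HAR123-KO. It could only be called up, and the size of its fold change rests on few or no counts. Of 8 surface ectoderm markers, 5 were tested and 0 called by edgeR, though GRHL3 (0.79), KRT18 (−0.42) and CDH1 (−0.73) passed the p threshold, and their summed levels were 199 to 206 CPM and 181 to 191 CPM. KRT5 and KRT14 of this list never exceeded 3 counts in a library. Of 8 ventral forebrain GABAergic markers, 4 were tested, with DLX1 among the 2 called up and DLX2 called down, while GSX2, NKX2-1 and GAD2 had at most 3 counts in every neuroectoderm library. Of 7 pluripotency genes, ZFP42 (2.22) was called up and 0 were called down. Of 7 mesoderm genes, 2 were tested and MEOX1 (1.12) was called up, and of 7 endoderm genes, 1 was tested and 0 were called.

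**Figure D4:**
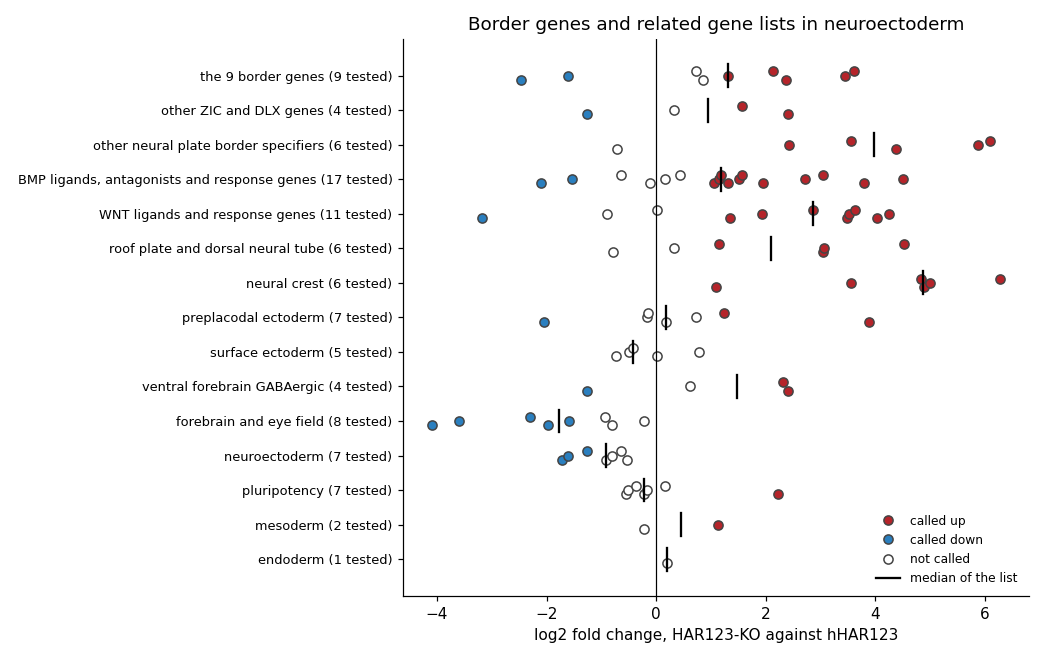
Log2 fold change in HAR123-KO against hHAR123 neuroectoderm (edgeR, 3 against 3 libraries) of each tested gene (points) in the 9 border genes and in each list of related genes or cell type markers, with the median of each list as a black bar. Red points were called up, blue points down and white points were not called. The median of the 9 border genes lies at 1.32. The medians of the other border specifier, WNT, roof plate and neural crest lists lie between 2.09 and 4.86, and that of the forebrain list lies at −1.78.

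Across the 8 conditions, the mean log2 CPM of neighbouring genes followed each other for 2 of the 3 pairs. Pearson's r over the 8 condition means was 0.995 for ZIC1 and ZIC4, 0.987 for DLX5 and DLX6, and 0.037 for ZIC2 and ZIC5. MSX1 and MSX2, which are not linked, had 0.988. ZIC5, which was lower in neuroectoderm than in hESCs in every genotype but HAR123-KO, had −0.919 with DLX5 and −0.867 with DLX6. All of these points share libraries, depth and the change of stage, which alone gives high values, so they are a description.

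By the same measure, the genes most like each member were SV2C, PRDM12 and RFX7 for ZIC1, SP5, TRAFD1 and DRGX for ZIC4, ZNF423 and AKR7A2 for ZIC2, and OPTC, PMVK and COX6B1 for ZIC5. They were DPYD, FAM210B and CLXN for MSX1, KAT14, TPTE2P1 and AXIN2 for MSX2, NFYA, REXO5 and ZNF346 for DLX3, EMSY, THCAT155 and WASF1 for DLX5, and NOS2, MYLK and TRIM17 for DLX6. Their r over 8 condition means ran from 0.970 for AKR7A2 to 0.999 for NOS2. Over the 24 single libraries, only ZNF423, AXIN2 and NFYA were again among the 3 most alike of their member.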

How the data were processed

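RNA was sequenced from H9 hESCs and neuroectoderm of 4 genotypes, 3 libraries per condition, grouped by the sample labels. Per the labels and the study's methods, the authors depleted ribosomal RNA, made directional paired-end libraries, filtered the reads, aligned them to GRCh38 with STAR 2.5.2b and counted reads over exons with featureCounts. The values deposited are these raw counts per gene, not normalized. ANK2 was left out because its entry was split over 3 lines, so 61551 of 61552 genes were used. Replicates differed by more than sampling noise (chi-square per degree of freedom 1.41 to 5.05 over 24 pairs), so none was treated as a copy.

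Counts were fitted in R 4.3.3 with edgeR 4.0.16 (filterByExpr, TMM, quasi-likelihood F test, Benjamini-Hochberg adjustment over all genes tested), each pair of groups alone, and genotype by stage interactions over 12 libraries. The study's thresholds, which it applied with DESeq2, were kept: adjusted p below 0.01 and log2 fold change beyond 1 in either direction. Standard errors were taken as |log2 fold change|/√F. The procedure was tested on simulated data. A gene at or under 3 counts in every library of a group was given a lower bound on its fold; such floors cover counting error only. Alternatives were DESeq2 1.42.0, its size factors in edgeR, no filter, all libraries in 1 fit, a block for replicate number, a threshold of 0.05 for the adjusted p and leaving out each library. The 9 genes were named in every comparison that tested them, by value or by range, with the 2 largest called changes of each related list, other genes of these families, the genes overlapping or just upstream of a member, and the 3 genes most alike (at least 1 CPM in a condition, prior count 2). A few genes that this rule picks are not reported here. The members and lists were chosen with earlier results of these data known. Further genes named with their values (ENSG00000288060, DLX6-AS1, ZIC4-AS1) follow from that rule, and KRT5, KRT14, GSX2, NKX2-1, GAD2, GRHL3, KRT18, CDH1 and WNT8B were named after their values were seen.

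In neuroectoderm, all 117 base means listed by the study for cHAR123 matched, within 1%, the columns labelled mHAR123, and all 114 listed for mHAR123 matched those labelled cHAR123. With these labels exchanged, an alternative chosen after seeing the data, the stage comparisons and interactions of both genotypes were fitted again. Replicate numbers did not pair the samples: correlations of same-numbered deviations ran from −0.0541 to 0.0568.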

Additional observations from a re-analysis of the deposited data

Results flagged for a closer look

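The difference between HAR123-KO and hHAR123 changed between hESCs and neuroectoderm for 6 of the 9 genes, by a test of the genotype by stage interaction with edgeR. The interaction, on the log2 scale and positive where the difference was higher in neuroectoderm, was 3.83 for MSX2 (adjusted p = 8.1e-09, edgeR), 2.84 for MSX1 (adjusted p = 1.51e-08, edgeR) and 1.93 for DLX3 (adjusted p = 0.000901, edgeR). It was 1.84 for ZIC1 (adjusted p = 0.000237, edgeR), 1.19 for ZIC2 (adjusted p = 3.92e-30, edgeR) and 1.15 for ZIC5 (adjusted p = 3.97e-24, edgeR). ZIC1 lost the call without hHAR123 hESC replicate 2 (1.55, adjusted p = 0.0131, edgeR), and DLX3 lost it without hHAR123 hESC replicate 3 (1.53, adjusted p = 0.0241, edgeR). ZIC2 and ZIC5 are the genes of this group with at least 2245 counts in every hESC library, and their HAR123-KO libraries lay below those of hHAR123 in hESCs and above them in neuroectoderm. For the other 4 genes the hESC libraries held at most 22 counts each.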

How the results depend on the processing

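With an adjusted p under 0.05 in place of 0.01, 2 of the 9 genes (ZIC1 and ZIC4) were called in the interaction of cHAR123 with stage, against 0. This is with the labels as given. In the interaction of HAR123-KO, ZIC4 (adjusted p = 0.0195, edgeR) and DLX5 (adjusted p = 0.0437, edgeR) gained the call. The share of all genes called at 0.05 is not given, so these counts are not read as a result about the members. ZIC4 and DLX5 had few or no counts in hESCs. With 1 library left out at a time, the number called in neuroectoderm was 7 to 7 for HAR123-KO against hHAR123, 2 to 3 for cHAR123 against hHAR123, 0 to 1 for mHAR123 against hHAR123, 7 to 7 and 6 to 7 for cHAR123 and mHAR123 against HAR123-KO, and 0 to 0 between the replacement genotypes. It was 0 to 0 in each comparison of hESCs, 8 to 8, 5 to 5, 7 to 7 and 7 to 7 between the stages in hHAR123, HAR123-KO, cHAR123 and mHAR123, and 5 to 7, 0 to 0 and 0 to 0 for the interactions of HAR123-KO, cHAR123 and mHAR123. With the replicate number as a block, 7 genes were called for HAR123-KO against hHAR123 in neuroectoderm, and the block changed no count of calls in any comparison. Same-numbered libraries share only a number. Of 1853 single values recomputed for the 9 genes, 1837 kept their side of the threshold, 7 lost the call and 9 gained it. The sign changed in 30 of the values that were not called and in 0 that were. Depth limits DLX5, DLX6 and ZIC4 in hESCs most, where a group at or under 3 counts per library gives only bounds.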
